A study of Homo sapiens with 18 samples.

Results

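The levels of 10 genes of the BCL2 family were examined in 18 RNA Seq libraries of LNCaP and C4-2 prostate cancer cells. The 10 members were chosen by name, with earlier results of these data known, so the choice was not blind to the data. The annotation used for counting holds 60675 genes, and 43853 of them were detected in some library. They were BCL2, BCL2L1, BCL2L2 and MCL1, which block apoptosis, the pore former BAK1, and BCL2L11, BAD, BID, BIK and BMF, which promote it through a single BH3 segment. All 10 members passed the filter on low counts in every comparison. LNCaP is an androgen-dependent line from a prostate cancer metastasis, and C4-2 is an androgen-independent line derived from LNCaP. Each line had 3 groups of 3 libraries. These were scrambled siRNA (siScr) with vehicle (DMSO), siScr with the synthetic androgen R1881 (1 nM), and siRNA pools against the histone demethylases KDM1A and KDM7A together (dual knockdown) with R1881 (1 nM). Every library came from transfected cells in phenol red-free medium with hormone-depleted serum (charcoal-stripped per the labels, dialysed per the study's methods) at 72 h. Dual knockdown with vehicle and single knockdowns were not analysed here, so an effect of the knockdown without R1881, or of either demethylase alone, could not be read. Each arm rested on a transiently transfected pool of siRNAs in a stock of 1 line, and the lines were separate cultures, so line and culture cannot be told apart.

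The BCL2 family sets whether the outer mitochondrial membrane is opened, the step that commits a cell to intrinsic apoptosis. Anti-apoptotic members hold the pore formers BAX and BAK1 and the BH3-only proteins in a groove, and BH3-only proteins either fill that groove or activate the pore formers directly. Once the membrane opens, cytochrome c leaves the mitochondria and caspases are activated. In prostate cancer the family is known for BCL2, which is often raised after androgen deprivation, and for BCL2L1 (BCL-XL) and MCL1, which are targets of BH3-mimetic drugs. Many members are controlled by phosphorylation, cleavage or splicing, and RNA levels carry none of these.

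Total counts per library ran from 10485096 to 20154243, apart from C4-2 siScr vehicle replicate 3, which had 3182604. That library and C4-2 dual knockdown replicate 1 stood apart from the other libraries of their groups. Their pairs had a chi-square per gene of 13.5 to 16.9, against 2.41 to 10.2 for all other replicate pairs. Fold changes of the members within C4-2, and between the lines with vehicle, are given with and without both. Other results that rest on them are not all given both ways. The labels of the C4-2 vehicle libraries name C4-2 in the title but LNCaP as the cell line. Over 1911 genes that differed at least 4-fold between the lines with R1881, these 3 libraries were nearer to C4-2 for 83.6% to 88.5% of genes, and the LNCaP vehicle libraries for 15.6% to 17.9%. KDM1A fell from 108 ± 4.45 to 51.6 ± 2.86 counts per 1000000 counts of the scaled library (CPM, mean ± SD, n = 3) with the dual knockdown in LNCaP, and from 142 ± 3.22 to 16.4 ± 3.03 in C4-2. KDM7A fell from 59.7 ± 5.02 to 30.9 ± 2.93 in LNCaP and from 121 ± 10.0 to 21.2 ± 2.88 in C4-2, so less of both transcripts was left in C4-2. With R1881 the androgen targets KLK3 and FKBP5 rose by a log2 fold change of 3.70 and 4.24 in LNCaP and 4.16 and 3.26 in C4-2. All 9 luminal prostate markers examined stayed above 18 CPM in every library. Of the 12 markers of basal, neuroendocrine, mesenchymal, immune and endothelial cells, 7 stayed below 1 CPM in every library. COL1A1 reached the highest value, at 6.96 to 36.3 CPM, and VIM ran from 1.24 to 13.5. In LNCaP with R1881, VIM at 12.1 ± 1.18 lay above COL1A1 at 8.65 ± 1.95. COL1A1 was at 16.7 ± 0.810 CPM in LNCaP vehicle and 32.5 ± 4.52 in C4-2 vehicle, with COL1A2 at 0 counts in both. The immune marker PTPRC, with 109 counts, was at 1.75 to 3.21 CPM in C4-2 vehicle and at most 0.184 in the other groups, while CD68 stayed at or below 0.551 in all. The 12 markers summed to 24.3 to 29.1, 22.7 to 27.7 and 25.7 to 27.7 CPM in LNCaP with vehicle, R1881 and dual knockdown and to 31.5 to 42.8, 25.7 to 30.5 and 36.3 to 46.0 in C4-2, and their part in the differences of the members was not tested.

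Levels of the members differed over a wide range. Counts were divided by scaled library size to give CPM and, to compare genes, also by exon length in kilobases. MCL1, which encodes a short-lived anti-apoptotic protein, had the highest level per kilobase in all 6 groups, from 48.3 ± 0.382 CPM per kilobase in LNCaP dual knockdown to 71.9 ± 2.40 in LNCaP vehicle (mean ± SD, n = 3). BCL2L1, the anti-apoptotic BCL-XL gene, ranged from 16.0 ± 1.09 in LNCaP vehicle to 30.3 ± 1.45 in C4-2 with R1881. BAD, a BH3-only gene whose protein is held in check by phosphorylation, ranged from 12.3 ± 1.03 to 26.7 ± 9.03 and overlapped BCL2L1 in LNCaP vehicle, C4-2 vehicle and C4-2 dual knockdown. BAK1, BCL2L2, BCL2L11, BIK and BID held the middle places, between 2.23 and 19.1. Within that middle group, neighbours in the order often overlapped, as BID, BCL2L11, BCL2L2 and BIK did in C4-2 vehicle. BMF was second lowest in each group, from 0.882 ± 0.156 to 2.93 ± 0.316, and BCL2 was lowest, from 0.0722 in C4-2 vehicle to 0.491 in LNCaP vehicle, both apart on that scale from the member above. Reads that touch exons of 2 genes were not counted and strand was not used, which touches the members that share exon bases with another gene. These were BCL2L1, with 43.0% of 3314 exon bases shared with the antisense gene ABALON, BCL2L2 with 24.3% shared with PPP1R3E and the read-through BCL2L2-PABPN1, BAD with 23.7% shared with GPR137, BMF with 8.46%, BAK1 with 4.11% and MCL1 with 2 bases. Per kilobase of unshared exon, BCL2L1 came to 53.1 in C4-2 with R1881 and overlapped MCL1 at 51.2. ABALON itself had at most 2.41 CPM in any library and BCL2L2-PABPN1 at most 1.35 CPM.

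**Figure D1:**
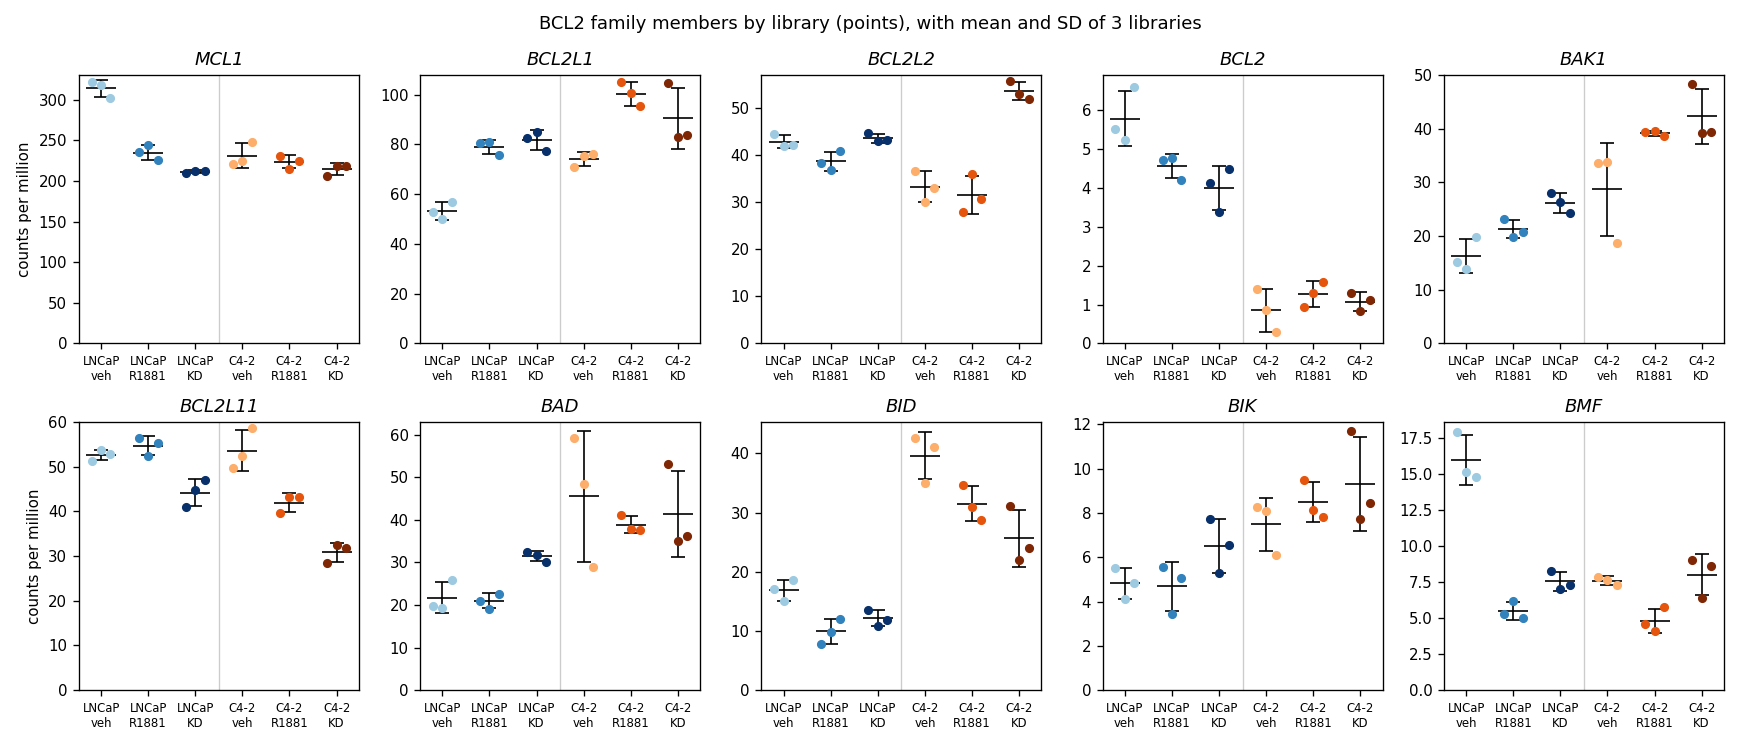
CPM (linear axes from 0) of the 10 members in each of the 18 libraries, as points, with the mean and SD of the 3 libraries of a group. Groups are siScr vehicle (veh), siScr R1881 and dual knockdown with R1881 (KD) in LNCaP (blue) and C4-2 (orange). BMF falls from a mean of 16.0 to 5.51 with R1881 in LNCaP, BCL2 stays below 2 in all C4-2 libraries, and BAK1 and BAD of 1 C4-2 vehicle library lie below the others of that group.

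BMF and BCL2L1 were the 2 members that passed the test with R1881 in the same direction in both lines, so the bases just before their starts are shown. They were taken from RefSeq (GRCh38.p14), which holds a window from 250 bases before to 50 after the start for 7 of the 10 members, and cut to the bases outside the gene as annotated in the count files. Both genes lie on the minus strand, and the sequence is written 5′ to 3′ on that strand. Capitals mark the GC box GGGCGG, found on either strand.
BMF, chr15:40108893-40109129: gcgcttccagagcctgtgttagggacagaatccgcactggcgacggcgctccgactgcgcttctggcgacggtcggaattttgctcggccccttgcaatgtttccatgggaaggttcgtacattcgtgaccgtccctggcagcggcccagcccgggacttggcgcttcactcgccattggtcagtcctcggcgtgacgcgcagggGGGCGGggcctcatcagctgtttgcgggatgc
BCL2L1, chr20:31723990-31724213: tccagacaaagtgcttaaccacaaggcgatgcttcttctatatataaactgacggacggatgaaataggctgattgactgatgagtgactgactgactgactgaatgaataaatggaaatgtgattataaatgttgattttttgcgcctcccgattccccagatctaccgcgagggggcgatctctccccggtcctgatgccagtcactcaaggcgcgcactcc
The BMF stretch was 64.6% G or C over 237 bases and held 1 GC box, and the BCL2L1 stretch was 47.8% over 224 bases and held none. In the whole windows the GC box was present for 5 of the 7 members (BCL2L11, BAK1, BAD, BID and BMF) and in 45.0% of all 35116 windows of that length. The androgen receptor half-site AGAACA, searched on both strands, was in none of the 7 windows and in 14.8% of all windows. The full element, written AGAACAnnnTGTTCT, was in none of the 7 and in 1 window in all. These counts describe the letters in a window of that length and say nothing of receptor binding, which can lie far from the start.

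R1881 against vehicle asks how the androgen moved the family in steroid-depleted cells. In LNCaP, BMF, BID and MCL1 fell and BCL2L1 and BAK1 rose, so 5 of 10 members passed an adjusted p under 0.05 in edgeR's quasi-likelihood test. Of all 17162 genes tested, 23.5% were higher and 23.2% lower by this rule, beside 2 and 3 of the 10 members. In C4-2, BCL2L1 rose and BMF and BCL2L11 fell, 1 higher and 2 lower of 10, beside 17.1% and 15.7% of 16965 genes. These shares are not far from the background. BMF in LNCaP was the 1 member past both an adjusted p of 0.05 and a 2-fold change, a pair of limits that 12.3% of genes passed there, and no member passed them in C4-2, where 9.07% of genes did. The median log2 fold change of the members was -0.11 against -0.04 for all genes in LNCaP and -0.06 against -0.02 in C4-2. The markers PTPRC and COL1A1 were also lower with R1881 than with vehicle in C4-2, the latter at 20.4 ± 3.66 CPM. The means of the mesenchymal marker VIM, the basal KRT14 and the neuroendocrine SYP were higher. VIM was at 4.55 ± 1.06 CPM against 1.70 ± 0.619 with vehicle, KRT14 at 0.985 ± 0.266 against 0.113 ± 0.153, and SYP at 1.52 ± 0.282 against 1.14 ± 0.500. The part of these markers in this comparison was not tested. In cultures measured in bulk, fewer cells of a type and less RNA per cell cannot be told apart.

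Among the anti-apoptotic members, MCL1 (ENSG00000143384, chr1:150574551-150579738) read 322, 319 and 302 CPM in the 3 LNCaP vehicle libraries and 236, 244 and 225 with R1881. Every R1881 library lay below every vehicle library (log2 fold change -0.44 ± 0.05 SE, adjusted p = 4.86e-06). In C4-2, MCL1 read 221, 224 and 249 CPM with vehicle and 231, 215 and 225 with R1881. Those groups overlapped, with a log2 fold change of -0.05 (95% confidence interval -0.21 to 0.12). The response differed between the lines by 0.38 ± 0.08, adjusted p = 0.00344, C4-2 minus LNCaP. BCL2L1 (ENSG00000171552, chr20:31664452-31723989) read 52.7, 49.8 and 57.0 CPM with vehicle and 80.6, 80.8 and 75.8 with R1881 in LNCaP. In C4-2 it read 71.1, 75.5 and 76.3 with vehicle and 105, 101 and 95.4 with R1881. The groups were apart in both lines, and the rise passed the test in LNCaP (log2 fold change 0.56 ± 0.07 SE, adjusted p = 4.57e-06) and in C4-2 (log2 fold change 0.43 ± 0.09 SE, adjusted p = 0.00185). The difference between these 2 responses was -0.13 (95% confidence interval -0.38 to 0.11). BCL2L2, which encodes BCL-W, read 44.5, 41.9 and 42.02 CPM with vehicle and 38.3, 36.8 and 40.8 with R1881 in LNCaP. The 3 R1881 libraries were lower, but the difference did not pass (-0.16 ± 0.07, adjusted p = 0.0802), and in C4-2 the groups overlapped (-0.08 ± 0.11, adjusted p = 0.619). BCL2 had few counts, with 27, 15 and 1 in the 3 C4-2 vehicle libraries and 17, 23 and 26 with R1881. Its change was -0.36 (95% confidence interval -0.72 to -0.0027) in LNCaP and 0.33 (95% confidence interval -0.51 to 1.18) in C4-2, the latter the widest of any member in that line, and neither passed the test.

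BAK1 (ENSG00000030110, chr6:33572547-33580293), which forms pores in the outer mitochondrial membrane, read 15.1, 13.9 and 19.9 CPM with vehicle and 23.1, 19.9 and 20.8 with R1881 in LNCaP. The highest vehicle library lay just below the lowest R1881 library (log2 fold change 0.37 ± 0.12 SE, adjusted p = 0.0174). The call was lost without LNCaP vehicle replicate 2 (adjusted p = 0.0824) or LNCaP R1881 replicate 1 (adjusted p = 0.0714), and when every library was thinned to the depth of the shallowest (0.35, adjusted p = 0.0752). In C4-2, BAK1 read 33.7, 33.7 and 18.6 CPM with vehicle and 39.4, 39.5 and 38.6 with R1881 (0.38 ± 0.15, adjusted p = 0.0687). The low vehicle value was that of the shallow replicate 3. Without both C4-2 libraries that stood apart, the difference was smaller and passed the test (0.22, adjusted p = 0.0239). BAK1 in C4-2 was also called with the GC trend removed (0.51, adjusted p = 0.00274) and with no filter (0.39, adjusted p = 0.00323). A replicate block (0.40, adjusted p = 0.0289) and thinning (0.70, adjusted p = 0.00265) gave a call too. DESeq2, RLE scaling, a mean of at least 1 CPM, the compared groups alone and all 18 libraries gave none.

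The BH3-only members moved unequally. BMF (ENSG00000104081, chr15:40087890-40108892), whose protein can be tethered to the cytoskeleton and released on loss of attachment, read 17.9, 15.2 and 14.8 CPM with vehicle and 5.31, 6.22 and 5.00 with R1881 in LNCaP. All 3 R1881 libraries lay below all vehicle libraries, a 2.93-fold lower level (log2 fold change -1.55 ± 0.13 SE, adjusted p = 5.44e-08). In C4-2 it read 7.87, 7.67 and 7.28 CPM with vehicle and 4.56, 4.10 and 5.75 with R1881. The groups were again apart, and BMF fell (log2 fold change -0.68 ± 0.18 SE, adjusted p = 0.00999), a call lost without C4-2 R1881 replicate 2 (adjusted p = 0.0536) and after thinning (-0.75, adjusted p = 0.0875). The fall was smaller in C4-2 by 0.86 ± 0.22, adjusted p = 0.0115, a call also lost after thinning (0.67, adjusted p = 0.329). BID (ENSG00000015475, chr22:17734138-17774770), which caspase-8 cleaves to link death receptors to mitochondria, read 17.1, 15.0 and 18.6 CPM with vehicle and 7.82, 9.89 and 12.1 with R1881 in LNCaP. The groups did not overlap (log2 fold change -0.78 ± 0.14 SE, adjusted p = 0.000264). In C4-2 BID read 42.6, 35.1 and 41.1 with vehicle and 34.6, 30.9 and 28.8 with R1881. The groups were apart but the test was not passed (-0.33 ± 0.13, adjusted p = 0.0646), while it was passed without the 2 C4-2 libraries that stood apart (-0.30, adjusted p = 0.0117).

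BCL2L11 (ENSG00000153094, chr2:111119378-111168447), which encodes BIM, an activator of the pore formers, read 51.3, 53.6 and 52.8 CPM with vehicle and 56.3, 52.3 and 55.4 with R1881 in LNCaP, where the groups overlapped (0.04 ± 0.07, adjusted p = 0.673). In C4-2 it read 49.6, 52.4 and 58.6 with vehicle and 39.6, 43.1 and 43.2 with R1881. The groups were apart and BCL2L11 fell (log2 fold change -0.34 ± 0.10 SE, adjusted p = 0.0154), a call lost without C4-2 R1881 replicate 1 (adjusted p = 0.0722). The responses differed between the lines by -0.39 ± 0.11, adjusted p = 0.0186, and this call was lost in 4 of the 18 fits that left out 1 library and with no filter (-0.38, adjusted p = 0.0658). BAD read 19.9, 19.3 and 25.9 CPM with vehicle and 21.1, 19.2 and 22.7 with R1881 in LNCaP, with overlap (-0.06 ± 0.11, adjusted p = 0.663). In C4-2 it read 59.3, 48.5 and 28.8 with vehicle and 41.2, 37.9 and 37.5 with R1881 (-0.29 ± 0.19, adjusted p = 0.261). The low vehicle library was again replicate 3, and without the 2 C4-2 libraries that stood apart BAD was lower with R1881 (-0.47, adjusted p = 7.72e-05). With all libraries and the trend of fold change with GC content removed, BAD was at 0.05, adjusted p = 0.814. BIK, a BH3-only protein of the endoplasmic reticulum, read 3.44 to 9.51 CPM in the 12 siScr libraries. Its groups overlapped in both lines, with changes of -0.03 (95% confidence interval -0.46 to 0.41) in LNCaP and 0.13 (95% confidence interval -0.24 to 0.50) in C4-2. Leaving out the 2 C4-2 libraries raised the number of members called with R1881 in C4-2 from 3 to 6, 2 higher and 4 lower, beside 22.6% and 21.4% of 17252 genes in that fit. There BCL2L1 was at 0.46, adjusted p = 5.41e-06, BMF at -0.70, adjusted p = 0.00195 and BCL2L11 at -0.28, adjusted p = 0.00401. MCL1, BCL2L2, BCL2 and BIK were not called in it, at 0.01, -0.09, 0.15 and 0.06. Over all genes, 14.0% of 18684 differed in R1881 response between the lines, beside 3 of the 10 members. Without the 2 libraries these were 17.4% of 19138 genes and again 3 members, MCL1 at 0.43, adjusted p = 0.000236, BMF at 0.84, adjusted p = 0.00905 and BCL2L11 at -0.33, adjusted p = 0.0206.

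**Figure D2:**
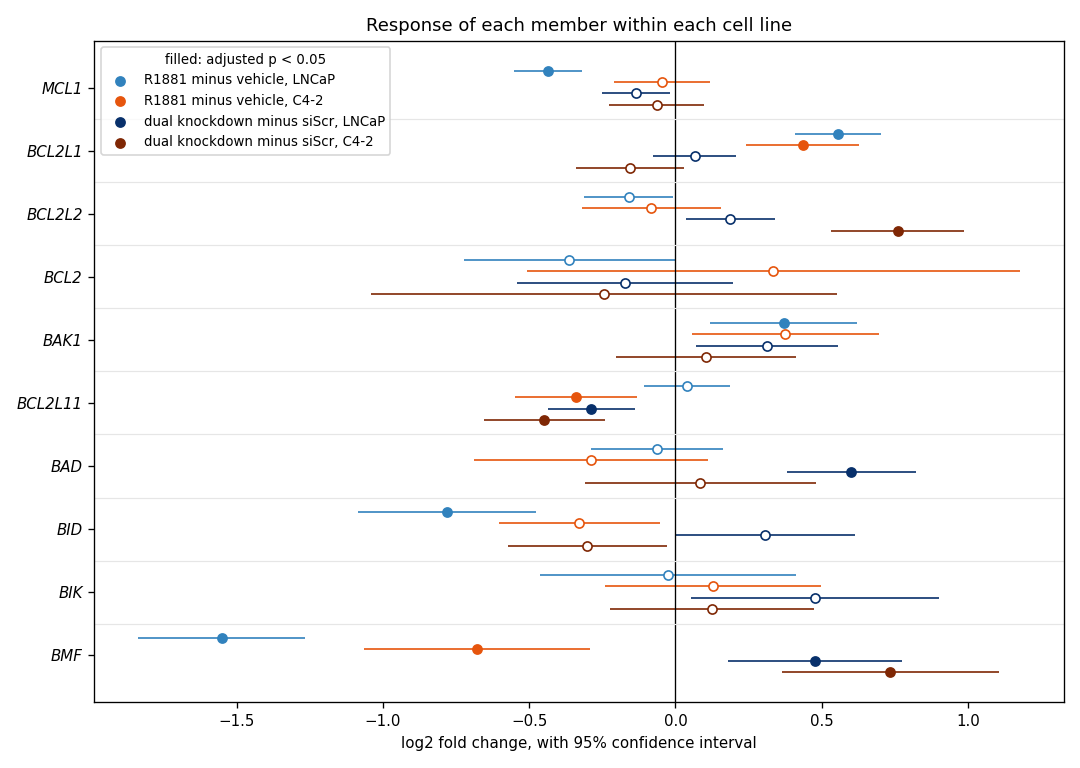
Log2 fold change (x axis) of each member with R1881 against vehicle and with dual knockdown against siScr, in LNCaP and C4-2. Bars are 95% confidence intervals and filled points passed an adjusted p of 0.05. BMF lies left of 0 with R1881 and right of 0 with dual knockdown in both lines, and the comparisons within a line share the siScr R1881 libraries.

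Dual knockdown against siScr, both with R1881, asks what depletion of the 2 demethylases did in androgen-treated cells. In LNCaP, BAD and BMF rose and BCL2L11 fell, and in C4-2 BCL2L2 and BMF rose and BCL2L11 fell. By the same rule 8.27% of genes were higher and 5.89% lower in LNCaP, beside 2 and 1 of the 10 members. In C4-2 12.7% of genes were higher and 10.8% lower, beside again 2 and 1. No member passed the adjusted p together with a 2-fold change, limits that 0.286% of genes passed in LNCaP and 3.94% in C4-2. The median log2 fold change of the members was 0.25 against 0.00098 for all genes in LNCaP and 0.01 against 0.01 in C4-2. The siScr R1881 libraries serve both this comparison and the one with R1881.

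BMF read 5.31, 6.22 and 5.00 CPM in the LNCaP siScr libraries and 8.30, 7.06 and 7.30 with dual knockdown. The groups were apart (log2 fold change 0.48 ± 0.14 SE, adjusted p = 0.0328), but the call was lost in 5 of the 9 fits that left out 1 library, with an adjusted p of up to 0.140. In C4-2 it read 4.56, 4.10 and 5.75 with siScr and 9.04, 6.42 and 8.60 with dual knockdown. Each knockdown library lay above each siScr library (log2 fold change 0.73 ± 0.17 SE, adjusted p = 0.00702), and the call held in all 9 such fits and without the 2 C4-2 libraries that stood apart (0.65, adjusted p = 0.00567). After thinning, neither call held, LNCaP standing at 0.46, adjusted p = 0.302 and C4-2 at 0.83, adjusted p = 0.0798. The LNCaP knockdown libraries stayed below the LNCaP vehicle libraries, which read 17.9, 15.2 and 14.8 CPM. In C4-2 the knockdown and vehicle libraries overlapped, the latter at 7.87, 7.67 and 7.28 CPM. The rise in C4-2 minus that in LNCaP was 0.28 (95% confidence interval -0.18 to 0.74).

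BCL2L11 read 56.3, 52.3 and 55.4 CPM with siScr and 40.9, 44.7 and 47.0 with dual knockdown in LNCaP. The groups were apart and BCL2L11 fell (log2 fold change -0.29 ± 0.07 SE, adjusted p = 0.0143), a call lost in 3 of the 9 fits without 1 library, with an adjusted p of at most 0.0683. In C4-2 it read 39.6, 43.1 and 43.2 with siScr and 28.5, 32.4 and 31.7 with dual knockdown. All knockdown libraries were lower (log2 fold change -0.45 ± 0.10 SE, adjusted p = 0.00394), also without the 2 C4-2 libraries that stood apart (-0.38, adjusted p = 0.000717), while after thinning the call was lost (-0.28, adjusted p = 0.191). C4-2 dual knockdown held the lowest 3 of the 18 BCL2L11 values. The responses of the lines differed by -0.14 (95% confidence interval -0.36 to 0.09).

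BCL2L2 (ENSG00000129473, chr14:23298790-23311759) read 27.9, 35.9 and 30.7 CPM with siScr and 55.6, 53.0 and 51.9 with dual knockdown in C4-2. The knockdown libraries were the highest 3 of all 18, and the rise was 1.69-fold (log2 fold change 0.76 ± 0.11 SE, adjusted p = 0.000177). In LNCaP it read 38.3, 36.8 and 40.8 with siScr and 44.6, 42.9 and 43.1 with dual knockdown. These groups were also apart, but the smaller difference did not pass (0.19 ± 0.07, adjusted p = 0.0928). Without the 2 C4-2 libraries that stood apart, the rise in C4-2 was 0.75, adjusted p = 2.48e-06. The response was larger in C4-2 by 0.60 ± 0.12, adjusted p = 0.00305, a call lost after thinning (0.48, adjusted p = 0.153), beside the lower KDM1A and KDM7A left there, whose part in this difference was not tested. Between the lines, 10.9% of 18684 genes differed in their response to the knockdown, beside 1 of the 10 members. BCL2L2-PABPN1, which shares 813 exon bases with BCL2L2, had 0.940 ± 0.318 CPM with siScr and 0.993 ± 0.224 with dual knockdown in C4-2.

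BAD (ENSG00000002330, chr11:64269830-64284704) read 21.1, 19.2 and 22.7 CPM with siScr and 32.5, 31.8 and 30.2 with dual knockdown in LNCaP. The groups were well apart and BAD rose (log2 fold change 0.60 ± 0.10 SE, adjusted p = 0.00307). At 65.2% G or C, BAD had the highest GC content of the 10 members, and after removal of the trend of fold change with GC content its change fell to 0.19, adjusted p = 0.273. The same correction took the LNCaP change of BMF, at 56.7% G or C, to 0.34, adjusted p = 0.156. In a fit to all 18 libraries the LNCaP changes of BAD and BMF were 0.58, adjusted p = 0.0516 and 0.46, adjusted p = 0.0755, and BMF also missed the threshold with DESeq2 (0.46, adjusted p = 0.0596). In C4-2, BAD read 41.2, 37.9 and 37.5 with siScr and 53.1, 35.1 and 36.2 with dual knockdown. The high knockdown library was replicate 1, which stood apart, and the groups overlapped (0.09 ± 0.18, adjusted p = 0.787). BID read 34.6, 30.9 and 28.8 with siScr and 31.1, 22.0 and 23.9 with dual knockdown in C4-2, where replicate 1 was again the highest (-0.30 ± 0.13, adjusted p = 0.105). Without the 2 C4-2 libraries that stood apart BID was lower with dual knockdown (-0.45, adjusted p = 0.00139), and so was BCL2L1 (-0.26, adjusted p = 0.00370), which raised the members called from 3 to 5, 2 higher and 3 lower, beside 17.2% and 16.1% of genes in that fit. BCL2L1 read 105, 101 and 95.4 with siScr and 105, 83.03 and 84.0 with dual knockdown, replicate 1 again the highest of its group and level with the siScr libraries. In LNCaP, BID was at 0.31 ± 0.15, adjusted p = 0.174, with overlapping groups. MCL1 read 236, 244 and 225 CPM with siScr and 209, 212 and 212 with dual knockdown in LNCaP. The knockdown libraries were lower without passing the test (-0.14 ± 0.05, adjusted p = 0.111). BAK1 read 23.1, 19.9 and 20.8 with siScr and 28.0, 26.3 and 24.3 with dual knockdown in LNCaP, apart but not called (0.31 ± 0.11, adjusted p = 0.0763). BCL2 and BIK did not pass in either line, with changes of -0.17 and -0.24 for BCL2 and 0.48 and 0.12 for BIK in LNCaP and C4-2. MCL1 and BAK1 in C4-2 overlapped between groups (-0.06 ± 0.08, adjusted p = 0.592 and 0.10 ± 0.14, adjusted p = 0.655), as did BCL2L1 in LNCaP (0.07 ± 0.07, adjusted p = 0.575). Without the 2 C4-2 libraries the uncalled members MCL1, BCL2, BAK1, BAD and BIK were at -0.02, -0.38, 0.01, -0.12 and -0.06 in C4-2. Knockdown responses were called different between the lines for BCL2L2 alone with all libraries. Under the alternatives with all libraries, BAD was also called with no filter (-0.50, adjusted p = 0.0154) and after thinning (-0.93, adjusted p = 0.0424). With the GC trend removed, the difference of BAD was -0.22, adjusted p = 0.439. Without the 2 C4-2 libraries that stood apart they were called different for 4 members, with BAD at -0.70, adjusted p = 0.00135, BID at -0.73, adjusted p = 0.00722, BCL2L1 at -0.30, adjusted p = 0.0247 and BCL2L2 at 0.58, adjusted p = 0.00176, beside 21.6% of genes.

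C4-2 against LNCaP asks how the family differed between the androgen-dependent line and its androgen-independent derivative. With vehicle, BID, BAD, BAK1, BIK and BCL2L1 were higher in C4-2 and BCL2, BMF, MCL1 and BCL2L2 lower, 9 of 10 members in all. Beside these 5 and 4 members, 29.4% of 18684 genes were higher and 29.5% lower. With R1881, BID, BAD, BAK1, BIK and BCL2L1 were higher and BCL2, BCL2L11 and BCL2L2 lower, beside 28.6% and 29.7% of genes. BCL2, BMF, BID and BAD also passed a 2-fold change with vehicle, as 24.2% of genes did, and BCL2 and BID with R1881, as 23.8% did. BAD with vehicle was called but under 2-fold with the GC trend removed (0.79, adjusted p = 7.65e-06) and after thinning (0.98, adjusted p = 8.30e-05). With 1 library left out, BAD ran from 0.92 to 1.31 and BMF from -1.10 to -0.97 with vehicle. The 4 members called higher in both states other than BCL2L1 were pro-apoptotic. The pro-apoptotic BMF went the other way with vehicle, and BCL2L11 did so with R1881. The 2 line comparisons use different libraries, and without the C4-2 libraries that stood apart the numbers of members called were again 9 and 8, beside 60.0% and 60.7% of genes. With vehicle, the members then stood at -2.34 for BCL2, 1.21 for BID, 1.31 for BAD, 1.05 for BAK1, -1.03 for BMF, 0.78 for BIK, -0.50 for MCL1, 0.46 for BCL2L1, -0.35 for BCL2L2 and -0.04 for BCL2L11. The groups compared with R1881 hold neither library. PTPRC and COL1A1 were higher in C4-2 than in LNCaP with vehicle, as given above. COL1A1 was so with R1881 too, at 8.65 ± 1.95 CPM in LNCaP. The means of VIM and SYP were lower in C4-2. VIM was at 1.70 ± 0.619 CPM against 8.10 ± 3.39 in LNCaP with vehicle and 4.55 ± 1.06 against 12.1 ± 1.18 with R1881. SYP was at 1.14 ± 0.500 against 1.96 ± 0.812 and 1.52 ± 0.282 against 2.56 ± 0.744. The part of these markers in the line differences was not tested. The median of the members was 0.24 against -0.01 for all genes with vehicle and 0.14 against -0.01 with R1881.

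BCL2 (ENSG00000171791, chr18:63123346-63320128), the founding anti-apoptotic member, differed most between the lines, reading 5.51, 5.24 and 6.59 CPM in LNCaP vehicle and 1.40, 0.859 and 0.291 in C4-2 vehicle. With R1881 it read 4.70, 4.76 and 4.19 in LNCaP and 0.935, 1.29 and 1.59 in C4-2. The lowest LNCaP library in either state lay above the highest C4-2 library (vehicle, log2 fold change -2.49 ± 0.28 SE, adjusted p = 1.07e-07; R1881, log2 fold change -1.84 ± 0.25 SE, adjusted p = 2.34e-06). The C4-2 values rest on 1 to 27 counts per library. BID was 16.9 ± 1.80 CPM in LNCaP and 39.6 ± 3.99 in C4-2 with vehicle (mean ± SD, n = 3), and 9.93 ± 2.12 and 31.5 ± 2.95 with R1881. It was higher in C4-2 in both states, by 1.23 ± 0.15, adjusted p = 2.75e-07 with vehicle and 1.67 ± 0.15, adjusted p = 3.77e-09 with R1881. BAD was 21.7 ± 3.64 in LNCaP and 45.5 ± 15.4 in C4-2 with vehicle (1.14 ± 0.18, adjusted p = 1.08e-05), and remained higher in C4-2 with R1881 (0.89 ± 0.17, adjusted p = 0.000163). BAK1 was 16.3 ± 3.15 and 28.7 ± 8.70 with vehicle, where C4-2 replicate 3 overlapped LNCaP (0.89 ± 0.15, adjusted p = 3.38e-05), and 21.3 ± 1.66 and 39.2 ± 0.495 with R1881, with no overlap (0.88 ± 0.14, adjusted p = 2.16e-05). Without the 2 C4-2 libraries that stood apart, the vehicle difference of BAK1 was 1.05, adjusted p = 1.08e-08.

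BIK (ENSG00000100290, chr22:43110748-43129712) was 4.83 ± 0.692 CPM in LNCaP and 7.49 ± 1.19 in C4-2 with vehicle (0.70 ± 0.20, adjusted p = 0.00542; after thinning 0.45, adjusted p = 0.225), and 4.69 ± 1.11 and 8.50 ± 0.893 with R1881 (0.84 ± 0.19, adjusted p = 0.000814). BCL2L1 was higher in C4-2 by 0.48 ± 0.08, adjusted p = 5.13e-05 with vehicle and 0.34 ± 0.08, adjusted p = 0.000927 with R1881. Its vehicle level in C4-2, at 74.3 ± 2.83 CPM, stood beside an R1881 level in LNCaP of 79.1 ± 2.83. MCL1 was lower in C4-2 with vehicle (-0.45 ± 0.06, adjusted p = 1.33e-06) and at -0.07 (95% confidence interval -0.19 to 0.05) with R1881. BMF was likewise lower with vehicle (-1.05 ± 0.15, adjusted p = 4.88e-06) and at -0.19 (95% confidence interval -0.53 to 0.14) with R1881. The change of these 2 line differences with R1881 passed its own test, as given above for the responses by line. BCL2L11 showed the reverse order of states, at 0.01 (95% confidence interval -0.16 to 0.17) with vehicle and -0.38 ± 0.08, adjusted p = 0.000180 with R1881. BCL2L2 was lower in C4-2 in both states (-0.36 ± 0.09, adjusted p = 0.00176 and -0.30 ± 0.09, adjusted p = 0.00621), the second lost without C4-2 R1881 replicate 1 (adjusted p = 0.0570) and after thinning (-0.06, adjusted p = 0.764).

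**Figure D3:**
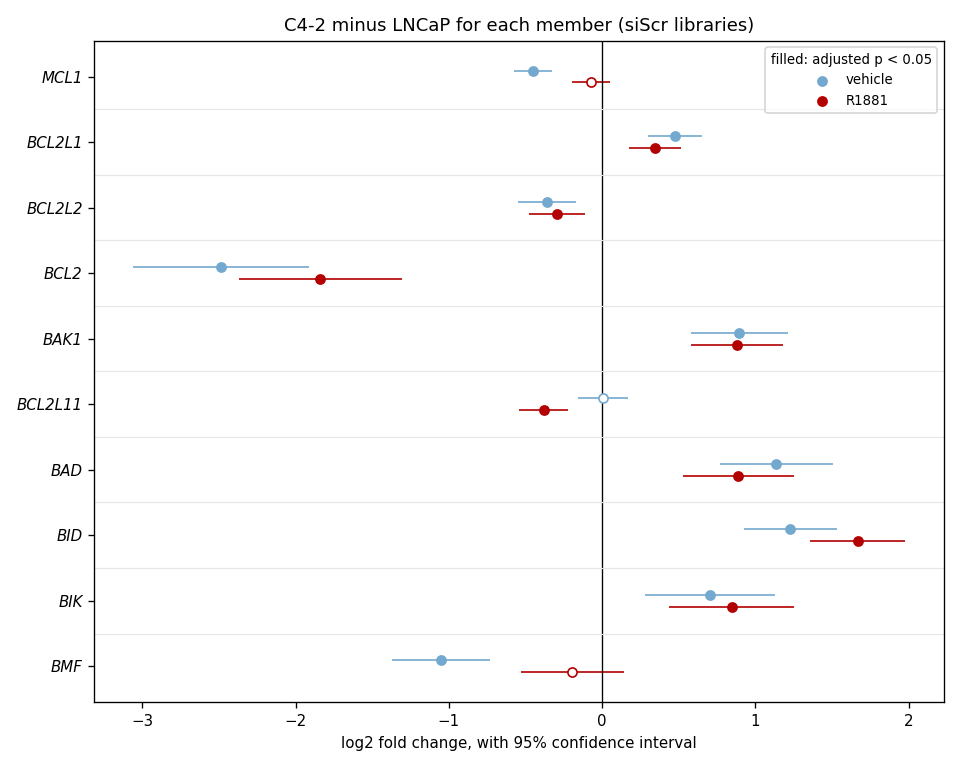
Log2 difference between C4-2 and LNCaP (x axis, right of 0 is higher in C4-2) for each member in siScr libraries with vehicle and with R1881. Bars are 95% confidence intervals and filled points passed an adjusted p of 0.05. BID, BAD, BAK1, BIK and BCL2L1 lie to the right in both states and BCL2 to the left, while MCL1 and BMF are filled with vehicle alone.

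The balance among the anti-apoptotic members was described by their shares of the summed level per kilobase, with no test. MCL1 made up 72.9% ± 1.41 (SD, n = 3) of the 4 in LNCaP vehicle and 61.6% ± 0.724 with R1881, and BCL2L1 16.3% ± 1.30 and 27.4% ± 0.303. In C4-2 the share of MCL1 was 63.4% ± 1.20 with vehicle and 57.4% ± 1.499 with R1881, and that of BCL2L1 26.9% ± 0.950 and 34.0% ± 1.02. The ratio of MCL1 to BCL2L1 was 4.50 ± 0.431 in LNCaP vehicle, 2.25 ± 0.0325 with R1881 and 1.96 ± 0.105 with dual knockdown. In C4-2 these ratios were 2.36 ± 0.109, 1.69 ± 0.0861 and 1.82 ± 0.283. Without the library that stood apart, the other 2 C4-2 libraries had ratios of 2.25 and 2.35 with vehicle and 1.97 and 2.00 with dual knockdown. Shares of BCL2L1 were 26.6 and 28.0% and of MCL1 62.5 and 63.1% in those vehicle libraries, and shares of BCL2L2 14.1 and 14.4% in those with dual knockdown. BCL2L2 reached 14.3% ± 0.166 in C4-2 dual knockdown against 8.45% ± 1.20 in its siScr control. BCL2 stayed at or below 0.499% in every group mean. Per unshared exon base, which leaves out the BCL2L1 bases shared with ABALON, the ratios were lower, at 2.57 ± 0.246 in LNCaP vehicle and 1.29 ± 0.0185 with R1881, and 1.34 ± 0.0622 and 0.965 ± 0.0491 in C4-2.

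**Figure D4:**
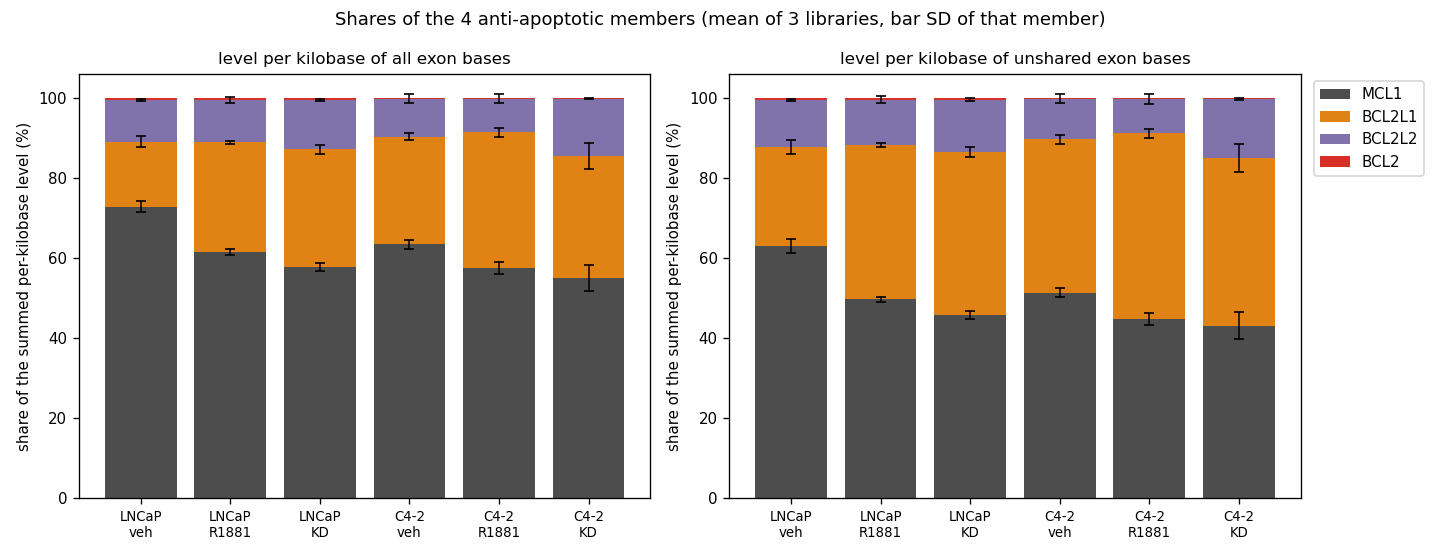
Share (%) of the 4 anti-apoptotic members in their summed level per kilobase, as stacked means of 3 libraries per group with the SD of each share, using all exon bases (left) or those not shared with another gene (right). Groups are siScr vehicle (veh), siScr R1881 and dual knockdown with R1881 (KD). MCL1 takes the greatest share in LNCaP vehicle, and BCL2L1 gains share with R1881 in both lines.

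The rest of the family and its pathway were read from 4 lists. Of 11 other BCL2 family genes, 7 could be tested in LNCaP and 8 in C4-2. With R1881, 2 rose and 3 fell in LNCaP, beside 23.5% and 23.2% of all genes, and HRK, a BH3-only gene, changed most (-2.05 ± 0.36, adjusted p = 0.000173). BBC3 (PUMA), a BH3-only target of p53, also fell (-0.70 ± 0.22, adjusted p = 0.0130), as did the pore former BAX (-0.37 ± 0.12, adjusted p = 0.0167), while BCL2L13 rose (0.18 ± 0.06, adjusted p = 0.0281). In C4-2 BAX (-0.33 ± 0.12, adjusted p = 0.0430), BCL2L14 (-1.01 ± 0.24, adjusted p = 0.00446) and PMAIP1 (-0.66 ± 0.17, adjusted p = 0.00681) fell and none rose, beside 15.7% and 17.1% of genes. PMAIP1 (NOXA), a BH3-only protein that binds MCL1, rose in LNCaP (0.37 ± 0.12, adjusted p = 0.0153), and its response differed between the lines by -1.06 ± 0.21, adjusted p = 0.00124. With dual knockdown, BOK (0.45 ± 0.11, adjusted p = 0.0139) and BCL2L12 (0.44 ± 0.12, adjusted p = 0.0272) rose in LNCaP and none fell, beside 8.27% and 5.89% of genes. In C4-2, BCL2L14 (1.48 ± 0.22, adjusted p = 0.000290) and PMAIP1 (0.87 ± 0.16, adjusted p = 0.00137) rose and none fell, beside 12.7% and 10.8% of genes, the latter more than in LNCaP by 0.91 ± 0.20, adjusted p = 0.00533.

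Between the lines, 5 of the 9 tested genes of that list were higher in C4-2 with vehicle and 3 lower, beside 29.4% and 29.5% of all genes, and with R1881 also 5 and 3, beside 28.6% and 29.7%. BAX, which with BAK1 opens the outer membrane, was higher in C4-2 with vehicle (0.78 ± 0.13, adjusted p = 2.64e-05) and with R1881 (0.81 ± 0.13, adjusted p = 1.66e-05). BOK was higher by 0.99 ± 0.13, adjusted p = 8.13e-07 and 0.92 ± 0.13, adjusted p = 1.89e-06, and BCL2L14 by 3.36 ± 0.34, adjusted p = 2.44e-08 and 2.61 ± 0.36, adjusted p = 1.93e-06. The BCL2L14 values rest on low levels in LNCaP, 0.301 ± 0.0425 CPM with vehicle and 0.248 ± 0.0728 with R1881. The size of its fold changes is therefore uncertain. BCL2L12 and BCL2L13 were higher by 0.79 ± 0.18, adjusted p = 0.000582 and 0.40 ± 0.07, adjusted p = 3.21e-05 with vehicle, and by 0.46 ± 0.17, adjusted p = 0.0232 and 0.26 ± 0.07, adjusted p = 0.00179 with R1881. The BH3-only genes HRK, BBC3 and PMAIP1 were lower in C4-2 in both states. HRK, at 0.0745 CPM in C4-2 against 2.88 in LNCaP with vehicle, passed the test (adjusted p = 5.40e-06) and also at 0.102 against 0.712 with R1881 (adjusted p = 0.00271), where its few counts in C4-2 allow no fold change. BBC3 differed by -1.27 ± 0.27, adjusted p = 0.000369 and -1.37 ± 0.28, adjusted p = 0.000232, and PMAIP1 by -0.37 ± 0.15, adjusted p = 0.0385 and -1.43 ± 0.15, adjusted p = 3.09e-08. Of the 52 called values that the naming rule picked from the 4 lists in comparisons with C4-2 libraries, 51 were also called without the 2 that stood apart, and PMAIP1 with vehicle was not (-0.33, adjusted p = 0.0652). In that fit 0 genes of this list rose and 5 fell with R1881 within C4-2, beside 22.6% and 21.4% of genes. Dual knockdown within C4-2 there gave 2 higher and 1 lower, beside 17.2% and 16.1%. C4-2 against LNCaP in that fit gave 5 higher and 2 lower with vehicle, beside 29.8% and 30.2%. The same contrast with R1881 gave 5 and 3, beside 29.8% and 30.9%. The list's median log2 fold change was -0.28 and -0.36 with R1881, 0.30 and 0.04 with dual knockdown in LNCaP and C4-2, and 0.78 and 0.46 between the lines with vehicle and R1881.

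Of 21 genes of the apoptosome, caspases and their inhibitors, 20 were tested. With R1881, 8 rose and 2 fell in LNCaP, beside 23.5% and 23.2% of all genes, and 3 rose and 3 fell in C4-2, beside 17.1% and 15.7%. CASP10, an initiator caspase (1.55 ± 0.17, adjusted p = 1.21e-06), and BIRC3, an inhibitor of apoptosis (1.31 ± 0.12, adjusted p = 6.22e-08), changed most in LNCaP. In C4-2 BIRC3 fell (-0.78 ± 0.15, adjusted p = 0.00113) and DIABLO, which blocks inhibitors of apoptosis, rose (0.49 ± 0.16, adjusted p = 0.0346), and the response of BIRC3 differed between the lines by -2.10 ± 0.20, adjusted p = 1.41e-07. With dual knockdown 3 rose and 3 fell in LNCaP, beside 8.27% and 5.89% of genes, led by the mitochondrial nuclease gene ENDOG (1.05 ± 0.14, adjusted p = 0.00109) and BIRC3 (-0.34 ± 0.11, adjusted p = 0.0436). In C4-2 6 rose and 3 fell, beside 12.7% and 10.8%, and BIRC5, which encodes survivin, was among those that rose (0.65 ± 0.10, adjusted p = 0.000419). Between the lines 10 were higher and 5 lower in C4-2 with vehicle, and 9 higher and 7 lower with R1881, beside 29.4% and 29.5% and 28.6% and 29.7% of genes. In the fit without the 2 libraries, 7 rose and 4 fell with R1881 within C4-2, beside 22.6% and 21.4% of genes. Dual knockdown within C4-2 there gave 9 higher and 4 lower, beside 17.2% and 16.1%. C4-2 against LNCaP in that fit gave 11 higher and 6 lower with vehicle, beside 29.8% and 30.2%. The same contrast with R1881 gave 9 and 10, beside 29.8% and 30.9%. With all libraries, ENDOG (1.27 ± 0.24, adjusted p = 8.98e-05) and CASP10 (-1.22 ± 0.23, adjusted p = 9.60e-05) differed most between the lines with vehicle, and CASP10 (-2.31 ± 0.19, adjusted p = 1.23e-09) and BIRC3 (-1.66 ± 0.14, adjusted p = 1.14e-09) with R1881. Medians of the log2 fold change over the list were 0.13 and -0.03 with R1881, -0.0038 and 0.13 with dual knockdown in LNCaP and C4-2, and 0.28 and -0.05 between the lines with vehicle and R1881.

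Of 11 death receptor genes, 10 were tested. With R1881, 5 rose and 0 fell in LNCaP, beside 23.5% and 23.2% of all genes, led by TNFRSF10B, a TRAIL receptor (1.20 ± 0.06, adjusted p = 3.05e-11), and the adaptor CRADD (0.75 ± 0.11, adjusted p = 2.29e-05). In C4-2 3 rose and 2 fell, beside 17.1% and 15.7%, with TNFSF10 (TRAIL) at -2.83 ± 0.53, adjusted p = 0.000937 and CRADD at 0.79 ± 0.13, adjusted p = 0.000430. The TNFSF10 value rests on low levels, 0.294 ± 0.228 CPM with R1881 against 1.89 ± 0.877 with vehicle. TNFSF10 and FAS differed in this response between the lines (-3.12 ± 0.63, adjusted p = 0.00140 and -1.06 ± 0.25, adjusted p = 0.00499). With dual knockdown 3 rose and 2 fell in LNCaP, beside 8.27% and 5.89% of genes, FAS falling (-0.61 ± 0.12, adjusted p = 0.00555) and TRADD rising (0.54 ± 0.11, adjusted p = 0.00555). In C4-2 0 rose and 2 fell, beside 12.7% and 10.8%, RIPK1 (-0.33 ± 0.10, adjusted p = 0.0260) and CFLAR, which blocks caspase-8 (-0.31 ± 0.09, adjusted p = 0.0197). Between the lines 1 was higher (FADD, 0.76 ± 0.18, adjusted p = 0.00121) and 1 lower (FAS, -0.92 ± 0.17, adjusted p = 0.000110) in C4-2 with vehicle, beside 29.4% and 29.5% of genes. With R1881 0 were higher and 6 lower, beside 28.6% and 29.7%, led by TNFSF10 (-2.25 ± 0.48, adjusted p = 0.000373) and FAS (-1.98 ± 0.17, adjusted p = 2.71e-09). In the fit without the 2 libraries, 3 rose and 2 fell with R1881 within C4-2, beside 22.6% and 21.4% of genes. Dual knockdown within C4-2 there gave 0 higher and 3 lower, beside 17.2% and 16.1%. C4-2 against LNCaP in that fit gave 2 higher and 1 lower with vehicle, beside 29.8% and 30.2%. The same contrast with R1881 gave 0 and 6, beside 29.8% and 30.9%. Over the tested genes of this list, the median log2 fold change was 0.32 and 0.06 with R1881, 0.09 and -0.19 with dual knockdown in LNCaP and C4-2, and -0.01 and -0.25 between the lines with vehicle and R1881.

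All 8 genes of mitochondrial partners and MCL1 turnover were tested, and none of those called reached a 2-fold change. With R1881, 2 rose and 2 fell in LNCaP, beside 23.5% and 23.2% of all genes, led by the ubiquitin ligase gene TRIM17 (-0.83 ± 0.31, adjusted p = 0.0364) and the channel gene VDAC1 (0.42 ± 0.06, adjusted p = 2.30e-05). In C4-2 2 rose and 0 fell, beside 17.1% and 15.7%, VDAC2, which binds BAK1 at the mitochondria (0.38 ± 0.08, adjusted p = 0.00271), and VDAC1 (0.25 ± 0.08, adjusted p = 0.0257). With dual knockdown USP9X, which removes ubiquitin from MCL1, fell in LNCaP (-0.28 ± 0.06, adjusted p = 0.00725), and FBXW7, which marks MCL1 for breakdown, fell in C4-2 (-0.63 ± 0.10, adjusted p = 0.000584), 1 of 8 lower in each line beside 5.89% and 10.8% of genes. Between the lines 3 were higher in C4-2 with vehicle, beside 29.4% of genes, led by VDAC2 (0.52 ± 0.08, adjusted p = 6.08e-06) and VDAC1 (0.44 ± 0.07, adjusted p = 2.01e-05), and 4 with R1881, beside 28.6%, led by VDAC2 (0.69 ± 0.08, adjusted p = 9.06e-08) and USP9X (0.43 ± 0.07, adjusted p = 2.04e-05). In the fit without the 2 libraries, 3 rose and 0 fell with R1881 within C4-2, beside 22.6% and 21.4% of genes. Dual knockdown within C4-2 there gave 0 higher and 2 lower, beside 17.2% and 16.1%. C4-2 against LNCaP in that fit gave 3 higher and 1 lower with vehicle, beside 29.8% and 30.2%. The same contrast with R1881 gave 4 and 0, beside 29.8% and 30.9%. For these 8 genes the median log2 fold change was 0.0001 and 0.07 with R1881, -0.02 and -0.14 with dual knockdown in LNCaP and C4-2, and 0.05 and 0.23 between the lines with vehicle and R1881. The medians over all genes, given above, lay between -0.04 and 0.01, and the lists were not compared with the other genes by a test.

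BCL2 and BID had the widest ranges of group means among the members, 2.79 and 2.00 on the log2 CPM scale. Over the 18 libraries, the genes with the profile most like BCL2 were ZNF827, PCDHGA7 and ZNF578, with Pearson's r of 0.98, 0.97 and 0.97. Those most like BID were CEND1, SMKR1 and APTR, with r of 0.98, 0.98 and 0.97. These values describe libraries that share line, treatment and depth and fall into 2 lines.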

How the data were processed

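Per the file headers, the deposited values are counts of read pairs per gene that the authors made with featureCounts (version 1.5.0, patch p1) over exons of the Ensembl 83 annotation of GRCh38, without strand and without reads that hit several genes or places. Libraries were poly(A)-selected and paired-end, trimmed with TrimGalore and aligned with STAR by the authors. Symbols came from GENCODE 29. The 18 libraries were grouped by their titles. The labels do not say that replicates were separate cultures, so p-values measure the spread between these libraries.

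Tests used edgeR 4.0.16 in R 4.3.3 (quasi-likelihood, TMM scaling, filterByExpr with a count minimum of 10), on 9 libraries within a line and on 18 between lines, with Benjamini-Hochberg adjustment over all genes tested. The fits were tested on simulated data, in which groups had the same level of each gene apart from changes added to some genes. The real line differences were not simulated, so this checked the code and not the results above. CPM used TMM-scaled library sizes. SE is the fold change divided by the root of F.

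All 10 members were named, as was each called gene of the first pathway list and the 2 called genes with the largest change in each of the others, of which 1 gene is not reported here by name. The members and lists were chosen with earlier results of these data known. Alternatives were DESeq2 1.42.0, RLE scaling, other filters, a replicate block, removal of a GC trend, thinning to 3182604 counts, other sets of libraries and each library left out. Leaving out 2 C4-2 libraries together was chosen after seeing the data.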

Additional observations from a re-analysis of the deposited data

Results flagged for a closer look

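For 4 members the response to a treatment differed between the lines by the interaction term of edgeR's fit over 18 libraries. With R1881, MCL1 fell in LNCaP with a log2 fold change of -0.44 and was at -0.05 in C4-2, a difference of 0.38 ± 0.08, adjusted p = 0.00344, and the call held in all 18 fits that left out 1 library. BMF fell by 1.55 in LNCaP and by 0.68 in C4-2 on the log2 scale, a difference of 0.86 ± 0.22, adjusted p = 0.0115, which also held in all 18 such fits but not after thinning (adjusted p = 0.329). BCL2L11 was at 0.04 in LNCaP and fell by 0.34 in C4-2, a difference of -0.39 ± 0.11, adjusted p = 0.0186, lost in 4 of those fits with an adjusted p of up to 0.0649, among them the fit without C4-2 vehicle replicate 3. With dual knockdown, BCL2L2 was at 0.19 in LNCaP and rose by 0.76 in C4-2, a difference of 0.60 ± 0.12, adjusted p = 0.00305, held in all 18 fits but not after thinning (adjusted p = 0.153). KDM1A and KDM7A were lowered further in C4-2, and the part of this in the BCL2L2 difference was not tested. Groups of 3 libraries were too small for a search for single outlying values.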

How the results depend on the processing

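The number of the 10 members called was within 1.5 times of that given above under RLE scaling, DESeq2, a mean of at least 1 CPM and a fit to the compared groups alone, in each of the 8 comparisons where they were run. For R1881 in C4-2 the 3 calls became 5 with the GC trend removed, 5 with no filter, 5 with a replicate block and 6 without the 2 C4-2 libraries that stood apart. For dual knockdown in LNCaP the 3 became 1 with the GC trend removed and 1 in a fit to all 18 libraries. For dual knockdown in C4-2 the 3 became 1 when all libraries were thinned to the smallest and 5 without the 2 C4-2 libraries. For the difference between lines in the knockdown response, the 1 call became 2 with the GC trend removed, 3 with no filter, 2 with a replicate block and 4 without the 2 C4-2 libraries. After thinning that number stayed at 1, but BAD was called in place of BCL2L2. With a 2-fold change also required, the calls were 1 and 0 for R1881 in LNCaP and C4-2, 0 and 0 for dual knockdown, 4 and 2 for the lines with vehicle and R1881, and 0 and 0 for the differences in response. With 1 library left out, the calls ran from 4 to 5 and 2 to 5 for R1881, 1 to 4 and 3 to 5 for dual knockdown in LNCaP and C4-2, 9 in each fit and 7 to 8 for the lines, and 2 to 3 and 1 to 4 for the differences in response. The 5 calls in C4-2 for R1881 and for dual knockdown, and the 4 for the difference in knockdown response, came without C4-2 dual knockdown replicate 1. The 1 call for dual knockdown in LNCaP came without dual knockdown replicate 1 or 2 or siScr R1881 replicate 3, and the last of these also gave 2 calls for the difference in knockdown response. Beyond the construction of each alternative, the cause was not tested. Shares of all genes called are not given for every alternative. Where they are not, a change in the number called cannot be read as particular to the members. No called value of a single member changed sign: of 738 values under the other alternatives, 675 kept their call, 20 uncalled ones moved by more than the spread between replicates, 15 lost a call and 28 gained one. Same-numbered libraries of a line correlated in their deviations from the group means by -0.08 to 0.13, over 0.1 in 1 of 9 pairs in each line. Their median was 0.016 in LNCaP and 0.055 in C4-2, against -0.0068 and -0.024 for pairs of other numbers. These values cannot decide whether the numbers pair the libraries, and the block adds no pairing known from the design. Depth limits BCL2 in C4-2, at 1 to 27 counts per library.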
